A study of Mus musculus with 12 samples.

Results

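The 35 genes described here carry a cell through the end of G2 and through mitosis: Cdk1 with its cyclins and phosphatase, the mitotic kinases, the spindle checkpoint, the chromosomal passenger complex, kinesins and other spindle proteins, cytokinesis genes, and centromere and chromosome genes used as proliferation markers. They were listed by name, without a cut on measured values, but were chosen with earlier results of these data known. A gene was measured where the array's annotation gave a probe set that gene's symbol and no other, and each of 34 of the 35 had exactly 1 such probe set, out of 22180 genes with a probe set of their own. Ccnb1, which encodes cyclin B1, had none and was not analysed here. Of 41345 probe sets in all, 3 named a member together with another gene (Top2a with Taf1d, Nusap1 with Oip5) and were not used.

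Cells pass from G2 into mitosis when Cdk1, bound to a B-type cyclin, is freed of inhibitory phosphates by Cdc25 phosphatases. Polo-like and Aurora kinases then build the spindle, a checkpoint holds back the anaphase-promoting complex until chromosomes are attached, and that complex destroys cyclin B and lets the cell divide. RNAs of these genes rise together late in the cycle. Their promoters are known for CCAAT boxes, bound by NF-Y, and for the cell cycle genes homology region (CHR), through which the DREAM complex holds them down in resting cells and the MuvB core, with B-Myb and FoxM1, drives them in dividing cells.

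The samples were MLE12 cells, a line from mouse lung epithelium that carries the SV40 large T antigen, a viral protein that binds p53 and the retinoblastoma family. Lentivirus made with the plasmid pLKO.1 brought an shRNA into cultures at 60% confluency over 12 hours, and RNA was taken 65 hours later. There were 4 groups of 3 arrays: an shRNA against the long noncoding RNA NANCI (NANCI_shRNA), the scrambled shRNA run with it (NANCI_control), an shRNA against the long noncoding RNA LL34 (LL34_shRNA), and the scrambled shRNA run with that (LL34_control). All 12 samples were therefore infected cells of the same line, and both controls got a scrambled shRNA. The comparisons ask how RNA levels responded to each shRNA. The labels call the arrays of a group biological replicates and do not say whether they were separate infections, and p-values then cover the spread among these arrays only, which may be technical.

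Each array gave a log2 signal per probe set. A difference of 1.00 on this scale is a doubling of signal, and array values are listed in the order of replicates 1 to 3. A gene was called higher or lower where limma, fitted to all 41345 probe sets on all 12 arrays, gave an adjusted p under 0.05 after Benjamini-Hochberg correction over all probe sets. The sets of 6 arrays had different medians (6.84 to 6.88 for the NANCI set and 6.54 to 6.61 for the LL34 set). Each shRNA group was therefore compared with the scrambled group of its own set, and these 2 comparisons share no arrays. The fit used a common estimate of the spread from all 12 arrays, and the difference between the changes spans both sets. LL34_control replicate 3 stood apart: it had the lowest mean correlation with its group of all arrays (0.988) and was the lowest of its group for 32 of the 34 members. LL34_shRNA replicate 2 was the lowest of its group for 31 members and NANCI_control replicate 2 for 25. Sfta3-ps, for which the RefSeq gene table gives Nanci as a synonym, was at 13.3% of its scrambled level after NANCI shRNA (limma adjusted p = 1.72e-07) and at 62.6% after LL34 shRNA (0.00284), and no RNA named LL34 was matched. Of 15 lung epithelial markers, 10 lay above the array median on all 12 arrays, while Sftpa1, Sftpd, Cldn18, Epcam and Krt18 had medians over the arrays at or below percentile 48.4 of all probe sets. Markers of other cell types were mixed. By group, 1 of 7 leukocyte and 1 to 2 of 6 endothelial markers lay above the array median on all 3 arrays. So did 4 to 6 of 8 mesenchymal and 0 to 1 of 4 ciliated markers. Ptprc (leukocyte), Pecam1 (endothelial) and Foxj1 (ciliated) had medians between percentiles 22.4 and 45.1. The mesenchymal Lum, Pdgfra and Pdgfrb lay between 14 and 48.1, and Vwf (endothelial), Col1a2 and Col3a1 (mesenchymal) between 51.1 and 52.4. Higher were Cd68 (leukocyte, percentile 73, up by 0.88 after NANCI shRNA), Tek (endothelial, percentile 60.1, with changes of -1.05 and -1.26 after NANCI and LL34 shRNA) and the mesenchymal Col1a1 (69.4) and Acta2 (67.1). Dcn, also mesenchymal, lay at percentile 99.4 and fell by 0.91 after NANCI shRNA.

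The promoters of 28 of the 35 genes were in the RefSeq table of assembly GRCm38.p6, Ccnb1 among them. The 5 below are examples and do not cover every pattern of calls in the tests that follow. Cdk1, Ccnb2, Cdc20 and Cenpa were higher after NANCI shRNA and lower after LL34 shRNA, and Mki67 was lower after NANCI shRNA. Each line gives the 130 bases before the annotated start, read along the gene's strand. Capitals mark matches to the CHR core TTTGAA or to CCAAT on either strand, where the other strand reads TTCAAA and ATTGG.
Cdk1 (chr10:69352913-69353042, minus strand): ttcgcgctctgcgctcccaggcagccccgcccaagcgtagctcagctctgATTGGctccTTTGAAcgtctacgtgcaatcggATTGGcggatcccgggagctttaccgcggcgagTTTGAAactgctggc
Ccnb2 (chr9:70421555-70421684, minus strand): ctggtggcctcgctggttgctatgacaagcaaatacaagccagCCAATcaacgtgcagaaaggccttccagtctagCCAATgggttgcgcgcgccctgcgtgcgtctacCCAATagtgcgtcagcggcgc
Cdc20 (chr4:118437344-118437473, minus strand): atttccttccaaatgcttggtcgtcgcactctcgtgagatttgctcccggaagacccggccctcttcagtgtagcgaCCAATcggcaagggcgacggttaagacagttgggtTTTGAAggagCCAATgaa
Cenpa (chr5:30666756-30666885, plus strand): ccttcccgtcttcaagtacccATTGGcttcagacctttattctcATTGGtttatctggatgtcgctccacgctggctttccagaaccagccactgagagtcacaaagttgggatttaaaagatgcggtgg
Mki67 (chr7:135716380-135716509, minus strand): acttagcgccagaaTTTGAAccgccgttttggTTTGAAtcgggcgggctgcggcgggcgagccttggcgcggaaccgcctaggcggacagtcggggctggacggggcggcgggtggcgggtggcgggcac

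Cdk1 has 2 CCAAT matches and 2 CHR matches in the stretch shown, and Cdc20 has a CHR match between 2 CCAAT matches. Ccnb2 has 3 CCAAT matches here, and 2 CHR matches, at positions -167 and 4 from the start. Cenpa has 2 CCAAT matches and a CHR match that begins 16 bases past the start. Mki67 has 2 CHR matches in the stretch shown and its 3 CCAAT matches farther out. Over the table's whole window of 300 bases (250 before the start and 50 after), TTTGAA was found in 21 of 28 member promoters (75%) against 18.1% of all 27025 promoters. The variant TTCGAA, which reads the same on both strands, was in 3 (10.7%) against 1.57%. CCAAT was in 23 (82.1%) against 37.9%, at least 2 CCAAT matches were in 17 (60.7%) against 12.2%, and CCAAT with either form of CHR was in 20 (71.4%) against 7.7%. An E2F-type sequence, TTTCGCGC or TTTGGCGC, was found in the Cdk1 promoter alone among the members (3.57%), against 0.833% of all promoters. No match can count as both TTTGAA and TTCGAA. These are matches of letters, described without a test.

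**Figure D1:**
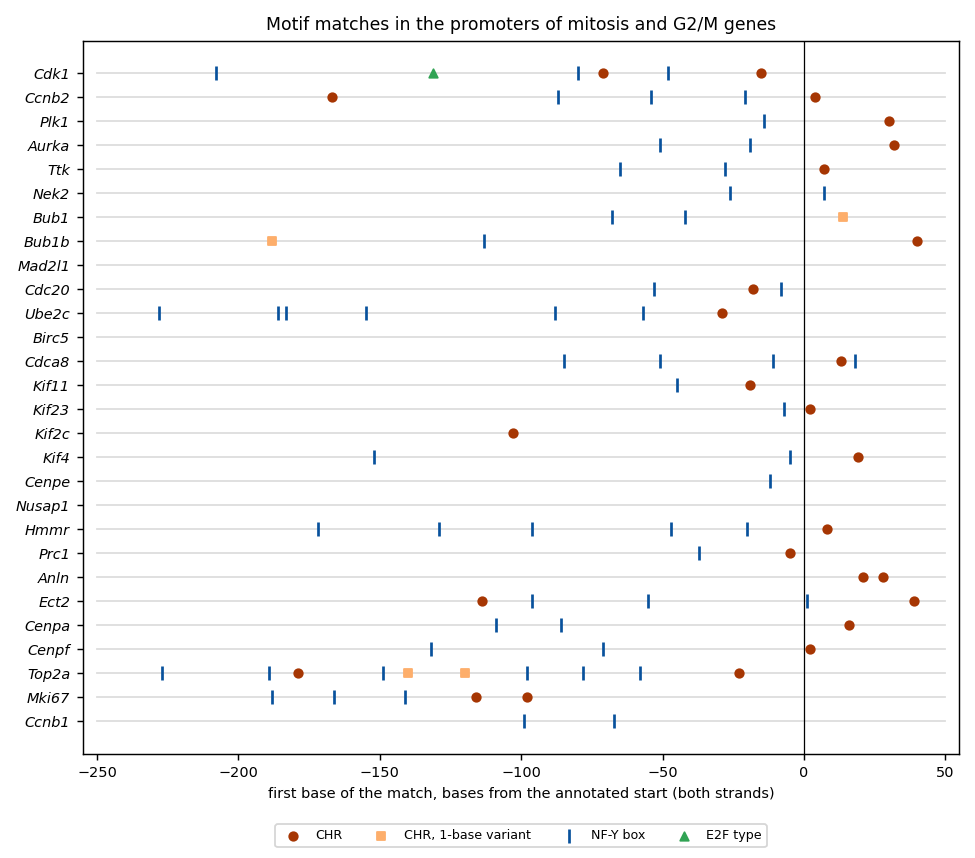
Positions of motif matches in the promoters of the 28 listed genes that the reference table holds, by distance in bases from the annotated start, with each symbol at the first base of a match on either strand. Circles are the CHR core, squares its variant, bars CCAAT (labelled NF-Y box) and the triangle the E2F type, which Cdk1 alone has; 21 promoters hold a circle, 23 hold a bar, and Mad2l1, Birc5 and Nusap1 hold no match.

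As a group, the mitosis genes went up more often than down after NANCI shRNA and almost only down after LL34 shRNA. After NANCI shRNA 13 members were called higher and 5 lower, and 16 were not called, with a median change of 0.09 against 0.00 over all genes. Of all genes, 13.2% were called higher and 13.6% lower in that comparison, and 19.9% of all probe sets were called. After LL34 shRNA 1 member was higher, 20 were lower and 13 were not called, with a median change of -0.28 against -0.02 over all genes. There 9.77% of all genes were called higher and 10.3% lower, and 16.4% of probe sets were called. In bulk RNA, fewer cells in G2 or mitosis and less of an RNA per cell cannot be told apart.

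The arrays of shRNA and scrambled cells did not overlap for 23 members after NANCI shRNA, 15 of them above and 8 below, where 40.5% of all genes did not overlap. After LL34 shRNA 24 members did not overlap, 3 above and 21 below, against 35.3% of all genes. The difference between the changes, NANCI minus LL34, was called higher for 16 members and lower for 2 (median 0.28, against 0.03 over all genes). Over all genes that difference was called higher for 12% and lower for 12.3%, and over probe sets in either direction for 18.8%. Without LL34_control replicate 3, the array that stood apart, 20 members were called lower after LL34 shRNA, with a median change of -0.30. Bub1 was among these and Aurkb was not, unlike in the fit to all arrays. Without LL34_control replicate 2 the number fell to 13.

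**Figure D2:**
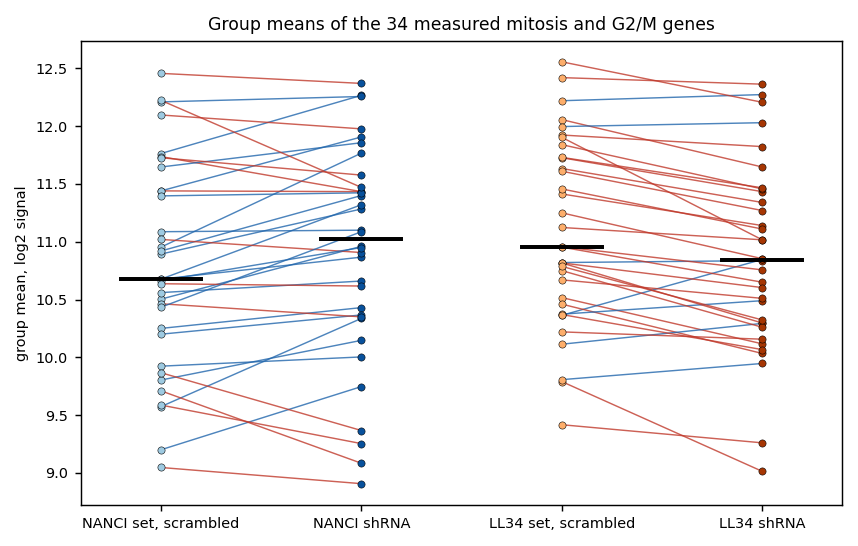
Group means of log2 signal (mean of 3 arrays) for the 34 measured genes in the scrambled and shRNA group of each set, with a line per gene (blue up, red down) and black bars at the median of the genes. The median lies higher in the NANCI shRNA group than in its scrambled group and lower in the LL34 shRNA group than in its own, with lines of both colours in each set.

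Read by pairs of calls, 10 members were higher after NANCI shRNA and lower after LL34 shRNA: Cdk1, Ccnb2, Cdc25c, Plk1, Aurkb, Bub1b, Cdc20, Kif20a, Tpx2 and Cenpa. Over all genes, 5.52% were called in opposite directions, in either order. Aurka, Birc5 and Cdca8 were higher after NANCI shRNA and not called after LL34 shRNA. Mad2l1, Cenpe and Cenpf were lower in both, where 5.28% of all genes were called in the same direction, either higher in both or lower in both. Kif4 and Mki67 were lower after NANCI shRNA and not called after LL34 shRNA. Nek2 was higher, and Ttk, Kif23, Kif2c, Dlgap5, Prc1, Anln and Ect2 were lower, after LL34 shRNA and not called after NANCI shRNA. The other 8, Ccna2, Bub1, Ube2c, Incenp, Kif11, Nusap1, Hmmr and Top2a, were called in neither. The number called in opposite directions was 6 without LL34_control replicate 2 and also 6 when each set of 6 arrays was fitted alone. Cdk1, Cdc25c, Bub1b, Kif20a and Cenpa were among them under every alternative run.

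**Figure D3:**
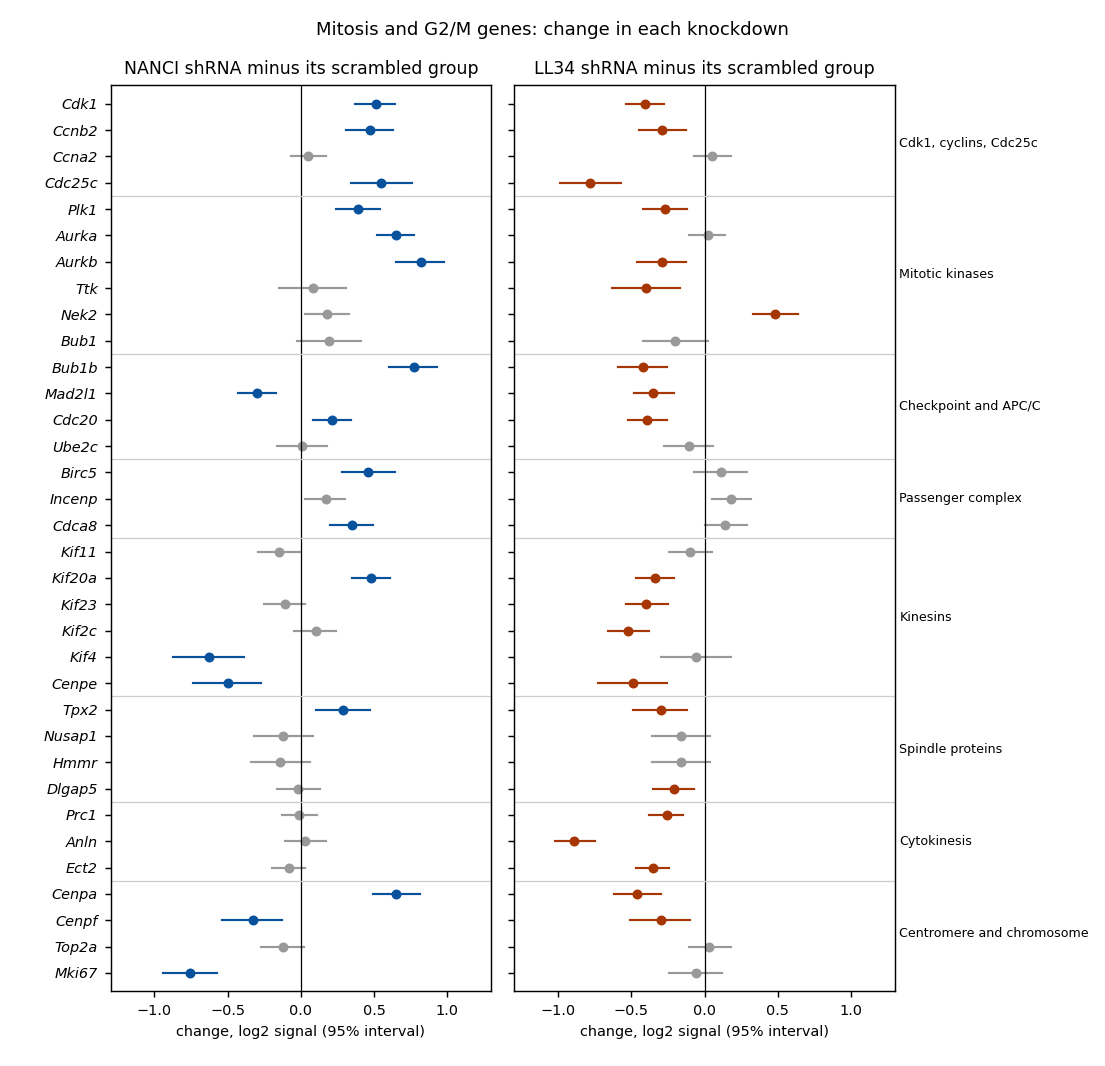
Change in log2 signal (shRNA minus its own scrambled group, 3 arrays each) of the 34 genes by role, with 95% intervals from the limma fit; coloured points were called and grey points were not. The left panel (NANCI) has 13 called points right of 0 and 5 left of it, and the right panel (LL34) has 20 called points left of 0 and Nek2 to the right.

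Cdk1, Ccnb2 and Cdc25c, the genes that start mitosis, moved up after NANCI shRNA and down after LL34 shRNA, while Ccna2 was called in neither. Cdk1, the kinase at the head of mitotic entry, measured 11.76, 11.68 and 11.85 in NANCI_control and 12.28, 12.24 and 12.28 in NANCI_shRNA. It measured 12.08, 12.06 and 12.03 in LL34_control and 11.69, 11.56 and 11.69 in LL34_shRNA. Every NANCI shRNA array lay above its 3 scrambled arrays and every LL34 shRNA array below its own. The change was 0.51 (SE 0.0603, limma adjusted p = 0.000115) after NANCI shRNA, to 142% of scrambled signal. After LL34 shRNA it was -0.41 (limma adjusted p = 0.000847), to 75.3%, and the difference between the changes was 0.91 (SE 0.0853, limma adjusted p = 2.85e-05). Ccnb2 encodes cyclin B2, a partner of Cdk1, and measured 11.54, 11.36 and 11.42 in NANCI_control against 11.91, 11.90 and 11.91 in NANCI_shRNA. In the LL34 set it went from 11.78, 11.83 and 11.57 to 11.46, 11.45 and 11.39. Neither pair of groups overlapped, and the changes were 0.47 (limma adjusted p = 0.000735) and -0.29 (0.0184). The fall of Ccnb2 after LL34 shRNA missed the threshold without LL34_shRNA replicate 3 or LL34_control replicate 1 or 2 (limma adjusted p 0.074, 0.0575 and 0.0748) and in the LL34 arrays fitted alone (0.0701).

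Cdc25c, the phosphatase that removes the inhibitory phosphates from Cdk1, had the widest gap between the changes of the 34 members. It measured 9.32, 9.01 and 9.27 in NANCI_control and 9.78, 9.70 and 9.76 in NANCI_shRNA. LL34_control gave 9.92, 9.80 and 9.65 and LL34_shRNA gave 9.05, 8.89 and 9.10. The groups of neither set overlapped, and the LL34 scrambled arrays were about as high as the NANCI shRNA arrays. The change was 0.55 after NANCI shRNA (95% interval 0.34 to 0.76, limma adjusted p = 0.00164) and -0.78 after LL34 shRNA (95% interval -0.99 to -0.57, 0.000281), a difference of 1.32. Ccna2, which encodes cyclin A2 of S phase and early mitosis, measured 12.25, 12.13 and 12.25 in NANCI_control and 12.20, 12.30 and 12.27 in NANCI_shRNA. It measured 12.24, 12.24 and 12.18 in LL34_control and 12.29, 12.24 and 12.29 in LL34_shRNA. The arrays overlapped in both sets, with 95% intervals of the change from -0.07 to 0.17 and from -0.07 to 0.18.

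Of the 6 mitotic kinases, Plk1, Aurka and Aurkb were higher after NANCI shRNA, and Plk1, Aurkb and Ttk were lower after LL34 shRNA. Aurkb, the kinase of the chromosomal passenger complex, measured 10.92, 10.95 and 10.99 in NANCI_control and 11.80, 11.66 and 11.84 in NANCI_shRNA. All 3 shRNA arrays were above the scrambled ones, and the change of 0.82 (SE 0.0757, limma adjusted p = 2.02e-05) took it to 176% of scrambled signal, the highest of the members in that comparison. In the LL34 set it went from 11.49, 11.67 and 11.74 to 11.35, 11.27 and 11.40, without overlap, a change of -0.29 (limma adjusted p = 0.0217). That second call was lost without LL34_shRNA replicate 1 or 2 or LL34_control replicate 2 or 3 (limma adjusted p between 0.0595 and 0.0842) and in the LL34 arrays alone (0.0765). Its difference between the changes was 1.11 (limma adjusted p = 3.62e-05).

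Aurka, the kinase of centrosomes and spindle poles, measured 10.67, 10.66 and 10.70 in NANCI_control and 11.42, 11.31 and 11.23 in NANCI_shRNA. It measured 10.82, 10.84 and 10.80 in LL34_control and 10.87, 10.80 and 10.84 in LL34_shRNA. NANCI shRNA arrays were all above their scrambled arrays, while the LL34 arrays overlapped. The change was 0.65 (SE 0.0571, limma adjusted p = 1.41e-05) after NANCI shRNA, and its 95% interval after LL34 shRNA ran from -0.11 to 0.14. The difference of 0.63 was itself called (limma adjusted p = 0.00024). Plk1, polo-like kinase 1, an activator of Cdc25 and of spindle assembly, measured 10.87, 10.86 and 10.95 in NANCI_control and 11.35, 11.35 and 11.15 in NANCI_shRNA. It went from 11.44, 11.42 and 11.38 in LL34_control to 11.17, 11.06 and 11.19 in LL34_shRNA. No arrays overlapped within a set, with changes of 0.39 (limma adjusted p = 0.00137) and -0.27 (0.0169). Without LL34_shRNA replicate 2 or LL34_control replicate 2 the fall of Plk1 was not called (limma adjusted p 0.071 and 0.0518).

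Nek2, a kinase that separates centrosomes, was the member called higher after LL34 shRNA. It measured 10.39, 10.42 and 10.28 in LL34_control and 10.88, 10.74 and 10.92 in LL34_shRNA, and 10.20, 10.23 and 10.32 in NANCI_control against 10.46, 10.35 and 10.48 in NANCI_shRNA. The shRNA arrays lay above the scrambled arrays in both sets. The change was 0.48 (SE 0.0694, limma adjusted p = 0.000723) after LL34 shRNA and 0.18 after NANCI shRNA, which did not pass (0.101). Their difference of -0.30 did not pass either (limma adjusted p = 0.0553). It passed under 6 of 19 alternatives, among them quantile normalization (0.0327) and leaving out LL34_shRNA replicate 2 (0.0332). Some of the 19 left the signals of the members as they were and changed only how the spread or the correction was computed. Ttk, the checkpoint kinase Mps1, measured 10.68, 10.63 and 10.24 in LL34_control and 10.16, 10.04 and 10.15 in LL34_shRNA. Replicate 3 of LL34_control lay close to the shRNA arrays, without overlap. The change of -0.40 (limma adjusted p = 0.0223) was not called without LL34_shRNA replicate 1, 2 or 3 or LL34_control replicate 1 or 2 (limma adjusted p between 0.053 and 0.0842) or in the LL34 arrays alone (0.103). After NANCI shRNA Ttk changed by 0.08 (95% interval -0.15 to 0.31), and the difference of 0.48 (limma adjusted p = 0.0429) was lost when any array except LL34_control replicate 3 was left out (limma adjusted p between 0.0528 and 0.1). Bub1, a kinase that recruits checkpoint proteins to kinetochores, overlapped in both sets. Its changes were 0.19 (limma adjusted p = 0.253) and -0.20 (0.241), and without LL34_control replicate 3 its LL34 change was -0.31 and was called (limma adjusted p = 0.031), as was its difference (0.00953), which also passed after quantile normalization (0.0473) and under 5 of 19 alternatives in all.

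**Figure D4:**
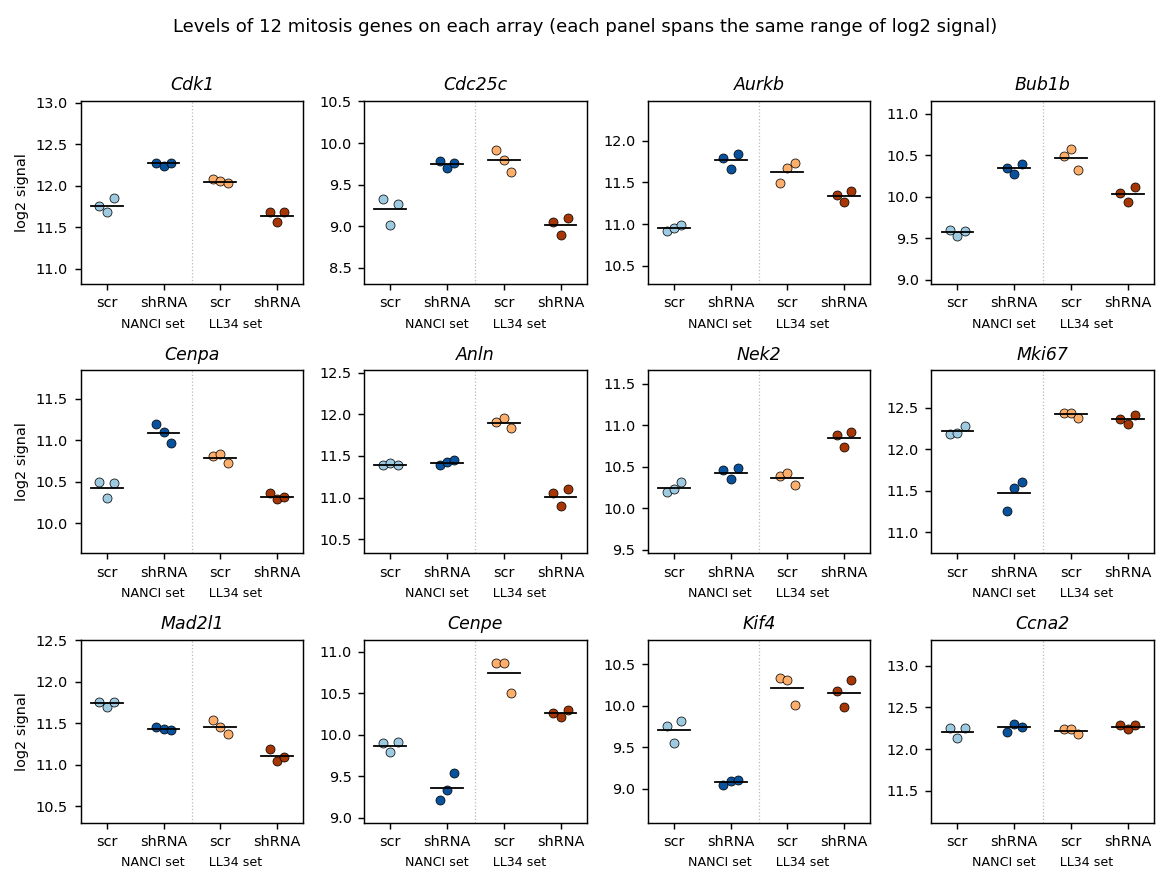
Log2 signal of 12 of the genes on each of the 12 arrays, in scrambled (scr) and shRNA cells of each set, with a bar at the group mean; all panels span the same range of log2 signal, so that distances can be compared but not heights. Cdk1, Cdc25c, Aurkb, Bub1b and Cenpa go up on the left and down on the right, Anln falls on the right, Nek2 is higher in LL34 shRNA cells, Mki67 and Kif4 fall on the left, Mad2l1 and Cenpe fall in both and Ccna2 overlaps in both.

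The 4 genes of the spindle checkpoint and the anaphase-promoting complex split further. Bub1b encodes BubR1, part of the checkpoint complex that restrains Cdc20, and measured 9.60, 9.53 and 9.59 in NANCI_control and 10.35, 10.27 and 10.39 in NANCI_shRNA. In the LL34 set it measured 10.49, 10.57 and 10.32 under the scrambled shRNA and 10.04, 9.94 and 10.12 under LL34 shRNA. Its groups did not overlap in either set, and all 3 LL34 shRNA arrays, though lowered, were still above the NANCI scrambled arrays. The changes were 0.77 (SE 0.074, limma adjusted p = 2.64e-05) and -0.42 (limma adjusted p = 0.0025), or 170% and 74.6% of scrambled signal. Mad2l1, which encodes the checkpoint protein Mad2, instead fell in both. It measured 11.76, 11.69 and 11.76 in NANCI_control and 11.45, 11.43 and 11.42 in NANCI_shRNA, then 11.54, 11.46 and 11.37 in LL34_control and 11.19, 11.05 and 11.09 in LL34_shRNA. The shRNA arrays were below the scrambled arrays in each set, with changes of -0.30 (limma adjusted p = 0.00369) and -0.35 (0.00231), with a 95% interval of the difference from -0.14 to 0.23.

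Cdc20, the activator of the anaphase-promoting complex, measured 11.60, 11.67 and 11.67 in NANCI_control, 11.92, 11.88 and 11.77 in NANCI_shRNA, 11.77, 11.86 and 11.89 in LL34_control and 11.45, 11.43 and 11.49 in LL34_shRNA. Its arrays did not overlap in either set, with a small rise of 0.21 (limma adjusted p = 0.0252) and a fall of 0.39 (0.001). The rise missed the threshold without NANCI_shRNA replicate 1 or 2 or NANCI_control replicate 1 or 3 (limma adjusted p between 0.0521 and 0.0937), in the NANCI arrays alone (0.0785) and after quantile normalization of all 12 arrays (0.101), while the difference of 0.60 was called (limma adjusted p = 0.000413). Ube2c, the ubiquitin-conjugating enzyme of that complex, was called in neither, with 95% intervals from -0.16 to 0.18 and from -0.28 to 0.06. Its LL34 shRNA arrays, 11.00, 11.04 and 11.01, lay just below the scrambled 11.14, 11.15 and 11.08.

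The chromosomal passenger subunits, which bring Aurkb to centromeres and midzone, held no gene called lower in either comparison. Birc5, which encodes survivin, measured 10.44, 10.50 and 10.57 in NANCI_control and 11.00, 11.00 and 10.88 in NANCI_shRNA. Cdca8, which encodes borealin, measured 9.88, 9.67 and 9.86 in the first group and 10.18, 10.14 and 10.12 in the second. In both, the NANCI shRNA arrays were above all scrambled arrays, by 0.46 (limma adjusted p = 0.00189) and 0.35 (0.00249). After LL34 shRNA the changes of Birc5 and Cdca8 were 0.11 and 0.14 and were not called, and neither difference between the changes passed (limma adjusted p = 0.0629 and 0.171). For Birc5 the difference passed under 6 of 19 alternatives, among them quantile normalization (limma adjusted p = 0.0263) and leaving out LL34_control replicate 3 (0.0151). Incenp, the scaffold of the complex, was a little higher on all shRNA arrays of both sets, by 0.17 and 0.18, and was not called (limma adjusted p = 0.09 and 0.0731). Aurkb, the kinase these subunits bind, was the member of the complex that was lower after LL34 shRNA.

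Among the 6 kinesins, microtubule motors of the spindle and midzone, 4 were lower after LL34 shRNA, while after NANCI shRNA Kif20a was higher and Kif4 and Cenpe were lower. Kif20a, a motor of the late spindle midzone, measured 10.95, 10.89 and 10.92 in NANCI_control, 11.45, 11.37 and 11.38 in NANCI_shRNA, 11.69, 11.64 and 11.50 in LL34_control and 11.29, 11.25 and 11.27 in LL34_shRNA. Its groups were apart in both sets, with changes of 0.48 (SE 0.0593, limma adjusted p = 0.000142) and -0.34 (limma adjusted p = 0.00241). Kif4, a chromosome-bound kinesin that also shortens the midzone, measured 9.76, 9.55 and 9.82 in NANCI_control and 9.05, 9.09 and 9.11 in NANCI_shRNA. It measured 10.34, 10.31 and 10.01 in LL34_control and 10.18, 9.98 and 10.31 in LL34_shRNA. NANCI shRNA arrays were all below their scrambled arrays, and the LL34 groups overlapped. Its changes were -0.63 (SE 0.108, limma adjusted p = 0.00149) and -0.06 (95% interval -0.30 to 0.18). The difference of -0.57 (limma adjusted p = 0.0237) was lost without NANCI_shRNA replicate 1, NANCI_control replicate 1 or 3 or LL34_shRNA replicate 1 or 3 (limma adjusted p between 0.0546 and 0.0625).

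Cenpe, a kinesin that carries chromosomes to the spindle's middle, measured 9.90, 9.79 and 9.91 in NANCI_control and 9.22, 9.34 and 9.54 in NANCI_shRNA. It measured 10.87, 10.87 and 10.51 in LL34_control and 10.26, 10.22 and 10.30 in LL34_shRNA. The shRNA arrays were the lower ones in each set, and all LL34 arrays lay above all NANCI arrays. It fell by 0.50 (limma adjusted p = 0.00521) and by 0.49 (0.0083), with a 95% interval of the difference from -0.34 to 0.32. Kif2c, which takes microtubules apart at centromeres, measured 10.90, 10.86 and 10.69 in LL34_control and 10.33, 10.26 and 10.30 in LL34_shRNA, without overlap, and fell by 0.52 (limma adjusted p = 0.000282). Its change after NANCI shRNA was 0.10 (not called, 0.405), and the difference of 0.62 was called (limma adjusted p = 0.000631). Kif23, the midzone motor of cytokinesis, went from 11.33, 11.29 and 11.13 to 10.85, 10.85 and 10.86 after LL34 shRNA, again without overlap. That fall of 0.40 was called (limma adjusted p = 0.00178), the NANCI change of -0.11 was not (0.33), and the difference of 0.29 just missed (0.0546). That difference of Kif23 passed under 7 of 19 alternatives, among them quantile normalization (limma adjusted p = 0.0206), array weights (0.0106) and leaving out NANCI_control replicate 1 (0.0376) or LL34_control replicate 3 (0.0132). Kif11, the motor that pushes spindle poles apart, was called in neither, with changes of -0.15 and -0.10. After quantile normalization of all arrays its NANCI change was -0.20 and was called (limma adjusted p = 0.0364).

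Of the 4 other spindle proteins, Tpx2 was called in both comparisons and Dlgap5 after LL34 shRNA. Tpx2, which activates Aurka on the spindle, measured 10.72, 10.65 and 10.62 in NANCI_control, 10.96, 10.94 and 10.95 in NANCI_shRNA, 11.07, 11.06 and 10.73 in LL34_control and 10.67, 10.61 and 10.67 in LL34_shRNA. The groups did not overlap in either set, and LL34_control replicate 3 lay nearer the shRNA arrays than its own group. Its changes were 0.29 (limma adjusted p = 0.0313) and -0.30 (0.0311), and the difference was 0.59 (0.00453). The rise was lost when any of the 6 NANCI arrays was left out (limma adjusted p between 0.052 and 0.0994). The fall was lost without LL34_shRNA replicate 1, 2 or 3 or LL34_control replicate 1 or 2 (between 0.075 and 0.115) and in the LL34 arrays alone (0.13). Dlgap5, which stabilises spindle fibres near chromosomes, measured 10.91, 10.87 and 10.67 in LL34_control and 10.64, 10.57 and 10.60 in LL34_shRNA. Those groups did not overlap, but the fall of 0.21 (limma adjusted p = 0.0457) was lost without LL34_shRNA replicate 1, 2 or 3 or LL34_control replicate 1 or 2 (limma adjusted p between 0.0881 and 0.145) and in the LL34 arrays alone (0.143). Its NANCI change was -0.02 and the difference of 0.20 was not called (limma adjusted p = 0.189), though it was with array weights (0.0403) and without LL34_control replicate 3 (0.0229). Nusap1 and Hmmr, which bundle and anchor spindle microtubules, overlapped in both sets, with changes between -0.16 and -0.12 and none called. With array weights the LL34 change of Hmmr was called (limma adjusted p = 0.0318).

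All 3 cytokinesis genes were lower after LL34 shRNA, and none was called after NANCI shRNA. Anln encodes anillin, the scaffold of the contractile ring, and measured 11.91, 11.96 and 11.84 in LL34_control and 11.05, 10.90 and 11.10 in LL34_shRNA. It measured 11.39, 11.41 and 11.39 in NANCI_control and 11.39, 11.43 and 11.45 in NANCI_shRNA. The LL34 groups were far apart for their spread (SD 0.061 and 0.11, n = 3 each), and the NANCI groups overlapped. The fall of 0.89 (SE 0.0619, limma adjusted p = 6.66e-06), to 54% of scrambled signal, was the largest of the 34 members in that comparison. The NANCI change was 0.03 (95% interval -0.11 to 0.17), and the difference of 0.92 was called (limma adjusted p = 3.36e-05). Ect2, which activates RhoA at the division plane, measured 12.63, 12.56 and 12.48 in LL34_control and 12.20, 12.22 and 12.20 in LL34_shRNA. Prc1, which bundles midzone microtubules, went from 11.76, 11.75 and 11.68 to 11.47, 11.41 and 11.52 between the same groups. All shRNA arrays were below the scrambled ones for both, with falls of 0.35 (limma adjusted p = 0.000908) and 0.26 (0.00603). Their NANCI changes were -0.08 and -0.01. The differences of 0.27 and 0.26 were called (limma adjusted p = 0.0265 and 0.0357). For Ect2 that call was lost when any array was left out, except NANCI_shRNA replicate 1, NANCI_control replicate 1 and LL34_control replicate 3 (limma adjusted p between 0.0509 and 0.0627). For Prc1 the exceptions were NANCI_control replicate 3, LL34_shRNA replicate 3 and LL34_control replicate 3 (between 0.0538 and 0.0891).

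The centromere and chromosome genes did not move as a block. Cenpa, the histone variant that marks centromeres, measured 10.50, 10.31 and 10.49 in NANCI_control, 11.19, 11.10 and 10.97 in NANCI_shRNA, 10.81, 10.83 and 10.72 in LL34_control and 10.36, 10.29 and 10.32 in LL34_shRNA. It was higher on every NANCI shRNA array and lower on every LL34 shRNA array than on the matching scrambled ones. The changes were 0.65 (SE 0.0735, limma adjusted p = 7.81e-05) and -0.46 (limma adjusted p = 0.00136), or 157% and 72.6% of scrambled signal. Mki67, which encodes the proliferation marker Ki-67, a coat of mitotic chromosomes, went the other way. It measured 12.19, 12.20 and 12.28 in NANCI_control and 11.26, 11.54 and 11.61 in NANCI_shRNA, and 12.44, 12.44 and 12.38 in LL34_control and 12.37, 12.31 and 12.41 in LL34_shRNA. The NANCI groups were apart, with replicate 1 of the shRNA group lowest, and the LL34 groups overlapped. Its NANCI change of -0.76 (SE 0.0826, limma adjusted p = 6.2e-05), to 59.2% of scrambled signal, was the largest fall of the 34 members in that comparison. After LL34 shRNA the change was -0.06 (95% interval -0.24 to 0.12), and the difference of -0.69 was called (limma adjusted p = 0.0015).

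Cenpf, a large kinetochore protein, measured 9.59, 9.54 and 9.63 in NANCI_control and 9.10, 9.33 and 9.33 in NANCI_shRNA. It measured 10.49, 10.45 and 10.17 in LL34_control and 10.06, 10.00 and 10.14 in LL34_shRNA. Its shRNA arrays were below the scrambled arrays in each set. The falls of 0.33 (limma adjusted p = 0.0261) and 0.30 (0.0468) both lay near the threshold. The NANCI call was lost without NANCI_shRNA replicate 1 or NANCI_control replicate 1 or 3 (limma adjusted p 0.106, 0.0705 and 0.0857), and the LL34 call without LL34_shRNA replicate 1, 2 or 3 or LL34_control replicate 1 or 2 (between 0.0735 and 0.148) and in the LL34 arrays alone (0.113). Top2a, the topoisomerase that untangles chromosomes, was called in neither. Its changes were -0.12 (95% interval -0.27 to 0.02) and 0.03 (-0.11 to 0.18). Its NANCI arrays measured 12.15, 12.01 and 12.13 under the scrambled shRNA and 11.92, 12.01 and 12.00 under NANCI shRNA, nearly touching.

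**Figure D5:**
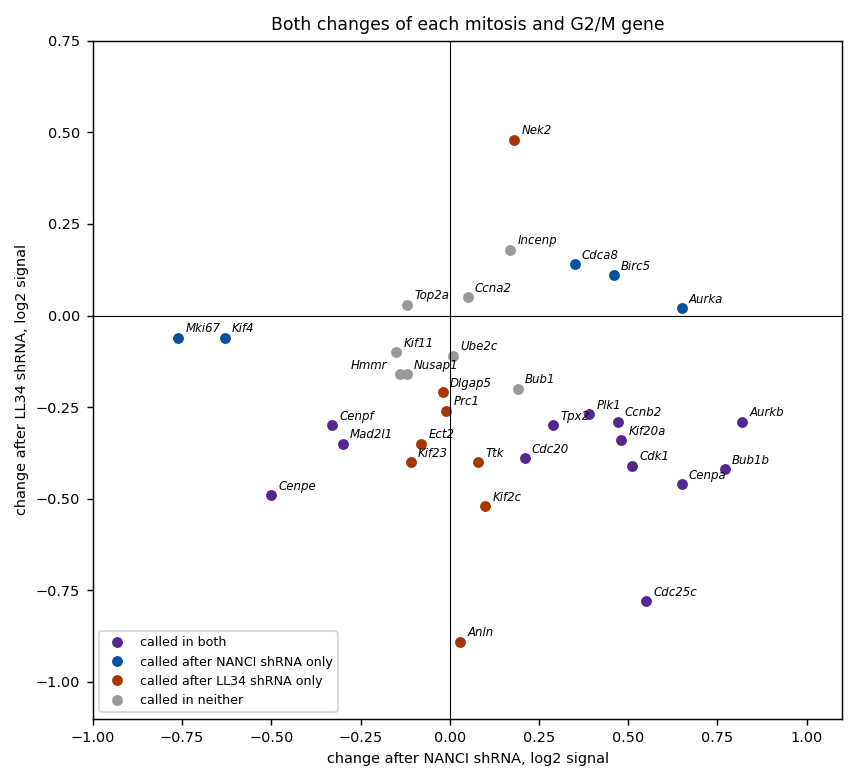
Change in log2 signal after NANCI shRNA (horizontal) against that after LL34 shRNA (vertical) for the 34 genes, coloured by the comparisons in which they were called; each comparison has its own scrambled arrays. The 10 genes called in opposite directions lie in the lower right and Mad2l1, Cenpe and Cenpf in the lower left. Both regions also hold genes that were not called in both comparisons. Nek2 is at the top and Anln at the bottom.

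The mitosis genes also differed between the scrambled groups. LL34_control minus NANCI_control had a median of 0.27 over the members, where the median over all genes was -0.23. All 3 LL34_control arrays were above all 3 NANCI_control arrays for 23 of the 34 members and below for 1, Mad2l1, while 11.3% of all genes were above and 53.3% below. After quantile normalization of all 12 arrays together the median was 0.33 against -0.02 over all genes, and 28 members were above and 1 below, where 24.9% of all genes were above and 28.7% below. Between the shRNA groups, LL34_shRNA minus NANCI_shRNA, the median over members was -0.12 against -0.27 over all genes, with 7 members above and 17 below. Of all genes, 16.6% were above and 61.2% below. After quantile normalization it was -0.04 against -0.07, with 12 members above and 14 below, against 26.6% and 40.8% of all genes. Bub1b was among the members with the widest gap between the scrambled groups. Its group means were 9.57 in NANCI_control and 10.46 in LL34_control, and 10.34 and 10.03 in the matching shRNA groups. Cenpe kept its gap, with LL34 means above NANCI means by 0.89 in scrambled and 0.90 in shRNA cells. The sets may have been normalized apart, and set and culture cannot be told apart, so these levels carry no test. Within a set, the probe sets of the members lay between percentiles 75.2 and 99.2 of all probe sets on every array. Brightness also depends on the probes, so members were not ranked by level.

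The wider cell cycle was described through 6 further lists of genes. The shares over all genes to set beside their counts were 13.2% higher and 13.6% lower after NANCI shRNA. After LL34 shRNA they were 9.77% higher and 10.3% lower. The other mitotic spindle, kinetochore and cytokinesis genes, 60 of 62 of them measured, had 14 higher and 12 lower after NANCI shRNA (median 0.02) and 4 higher and 14 lower after LL34 shRNA (median -0.03). Kntc1, a kinetochore protein of the checkpoint, fell by 1.13 after NANCI shRNA (limma adjusted p = 3e-06), to 45.8% of scrambled signal, and changed by 0.14 after LL34 shRNA (0.306). Gtse1, a microtubule protein of G2 and mitosis that binds p53, rose by 1.11 after NANCI shRNA (limma adjusted p = 1.29e-05). Psrc1 rose there by 0.68 and Cenpm, a centromere protein, fell by 0.75. After LL34 shRNA Pimreg fell by 0.70, Bora, a cofactor of Aurka toward Plk1, by 0.52 and Ckap2 by 0.48, while Spc24, a subunit of the Ndc80 complex, rose by 0.53 (limma adjusted p between 9.29e-05 and 0.00134).

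Genes of Cdk1 activation and the G2 checkpoint, 24 of 28 measured, included regulators that hold the cycle back. After NANCI shRNA 11 were higher and 4 lower (median 0.11), and after LL34 shRNA 1 was higher and 9 lower (median -0.13). The 4 with the smallest p after NANCI shRNA were Mdm2, the ligase that degrades p53, at 259% of scrambled signal, Ccng2, which encodes cyclin G2, at 248%, Ccng1 at 185% and Cdkn1a, which encodes the Cdk inhibitor p21, at 184% (limma adjusted p between 1.06e-06 and 9.72e-06). Mdm2, Ccng1 and Cdkn1a are known targets of p53. These genes were higher on the same arrays as Cdk1, Ccnb2 and Cdc25c. After LL34 shRNA Gadd45g was at 41.3% of scrambled signal, Gadd45b at 61.4%, Cdkn3 at 65.5% and Cdkn2c, an inhibitor of Cdk4 and Cdk6, at 72.3% (limma adjusted p between 2.21e-05 and 0.000727). Not all of these were split by knockdown: Gadd45g also fell after NANCI shRNA, by 1.04 (limma adjusted p = 4.18e-05), with a difference of 0.24 that was not called (0.362), and Cdkn1a also rose after LL34 shRNA, by 0.38 (0.00174).

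Regulators that act at CHR, CCAAT and E2F sites had no common direction. Of 24, 5 were higher and 7 lower after NANCI shRNA (median -0.02), and 7 were higher and 5 lower after LL34 shRNA (median 0.08). E2f5, a repressor-type E2F, rose by 1.02 after NANCI shRNA (limma adjusted p = 0.000192) and fell by 1.71 after LL34 shRNA (1.17e-05). Rb1 rose by 0.48 after NANCI shRNA, while Nfya, a subunit of the CCAAT-binding factor NF-Y, fell by 0.50 and E2f7 by 0.38. After LL34 shRNA the MuvB subunits Lin54, which binds CHR, and Lin52 rose by 0.57 and 0.62, and Rbl2, the p130 of DREAM, fell by 0.39 (limma adjusted p between 0.000235 and 0.00416). Among 20 genes of the anaphase-promoting complex, 5 were higher and 3 lower after NANCI shRNA and 2 higher and 3 lower after LL34 shRNA. Fzr1, the Cdh1 activator that takes over from Cdc20 late in mitosis, rose by 0.76 after NANCI shRNA (limma adjusted p = 2.75e-06) and fell by 0.26 after LL34 shRNA (0.00582).

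Genes of DNA replication and S phase, 43 of 46 measured, moved both ways in each comparison. After NANCI shRNA 10 were higher and 10 lower, and after LL34 shRNA 9 were higher and 7 lower (medians of -0.02 in each). Each of these counts was a larger share than over all genes. Lig1, Slbp, Rfc5 and Gins2 had the smallest p after NANCI shRNA and fell by 0.76, 0.71, 0.61 and 0.59 (limma adjusted p between 7.06e-06 and 1.17e-05). After LL34 shRNA Uhrf1 fell by 0.78, Mcm7 by 0.53 and Rrm1 by 0.39, and Rfc2 rose by 0.38. Of 11 genes of G1, 2 were higher and 2 lower after NANCI shRNA, and 1 was higher and 6 lower after LL34 shRNA (median -0.36). There Ccnd1, which encodes cyclin D1, was at 45.5% of scrambled signal, Cdk6 at 53.3%, Ccnd2 at 58.8% and Cdk4 at 72.4% (limma adjusted p between 8.52e-07 and 0.000578). After NANCI shRNA Ccnd3, which encodes cyclin D3, was at 248% and Ccnd1 at 79%.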

How the data were processed

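Per the labels' protocols, a poly(T) primer served to copy 100 ng of total RNA per sample, and the product was amplified and biotin-labelled (Affymetrix). The authors deposited log2 signals per probe set. The submitters' processing notes name oligo, limma and RMA, a method of background correction, quantile normalization and summary, with versions not given in the sources used here. Exact ties on 2 arrays were found for 2712 probe sets in LL34_control and 3590 in LL34_shRNA. In NANCI_control and NANCI_shRNA they were found for 43 and 70. Among members, Ccna2 and Mki67 were tied in LL34_control, and Cdk1, Tpx2 and Top2a in LL34_shRNA. Such ties can make errors too small, and the fit shares its spread over both sets.

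From these values limma 3.58.1 in R 4.3.3 fitted 4 group means to 41345 probe sets (8 residual and 2.84 prior degrees of freedom). Contrasts were each shRNA group minus its own scrambled group, and the difference of the 2 changes. Changes carry the fit's standard error (SE). The analysis was tested on simulated data. Of the probe sets, 23521 had 1 symbol in the platform's annotation, 1814 several and 16010 none. A gene's brightest probe set stood for it. All members were named, and of each further list up to 4 called genes with the smallest p. No array batch or date was given, and the number of arrays limits the precision. The members, lists and tests were chosen with earlier results of these data known. Same-numbered arrays did not deviate together, so numbers were not treated as pairs. Alternatives were other scalings, the own 6 arrays alone, the replicate block, array weights and leaving out each array. Others were a filter on dim probe sets, another prior and averaged probe sets. These last left the signals of each member as they were and changed only the prior or the correction.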

Additional observations from a re-analysis of the deposited data

Results flagged for a closer look

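For 18 of the 34 mitosis and G2/M genes the NANCI change differed from the LL34 change by limma's test of the difference itself (adjusted p under 0.05). Over all genes, that test called 12% higher and 12.3% lower. The difference was positive for Cdc25c (1.32), Bub1b (1.19), Aurkb (1.11), Cenpa (1.11), Anln (0.92), Cdk1 (0.91), Kif20a (0.82), Ccnb2 (0.76), Plk1 (0.67), Aurka (0.63), Kif2c (0.62), Cdc20 (0.60), Tpx2 (0.59), Ttk (0.48), Ect2 (0.27) and Prc1 (0.26), on the log2 scale. It was negative for Mki67 (-0.69) and Kif4 (-0.57). In the scrambled groups the members were higher in the LL34 set than in the NANCI set by a median of 0.27, and their part in these differences was not tested.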

How the results depend on the processing

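No change of a called member reversed its direction under any alternative run. Of 18 calls after NANCI shRNA, 15 held under all 14 alternatives, and Cdc20, Tpx2 and Cenpf did not. Of 21 calls after LL34 shRNA, 14 held under all 14 alternatives, and Ccnb2, Plk1, Aurkb, Ttk, Tpx2, Dlgap5 and Cenpf did not. Of 18 calls of the difference, 14 held under all 19, and Ttk, Kif4, Prc1 and Ect2 did not. Leaving out 1 array gave 11 to 12 members higher and 4 to 5 lower after NANCI shRNA, and 13 to 20 lower after LL34 shRNA. It gave 13 to 20 higher and 1 to 3 lower in the difference, and 6 to 9 called in opposite directions. With the replicate number as a block (same-numbered correlations between -0.125 and 0.0451), 11 members were higher and 4 lower after NANCI shRNA. After LL34 shRNA 1 was higher and 14 lower, in the difference 13 were higher and 1 lower, and 6 were called in opposite directions. Calls lost with the block were Cdc20, Tpx2 and Cenpf after NANCI shRNA. After LL34 shRNA they were Plk1, Aurkb, Ttk, Tpx2, Dlgap5 and Cenpf, and in the difference Ttk, Kif4, Prc1 and Ect2. The count called in opposite directions was also 6 with each set fitted alone, a fit with fewer degrees of freedom. Whether that lowered the count was not tested. With array weights 22 members were lower after LL34 shRNA, with Bub1 and Hmmr added (limma adjusted p = 0.0304 and 0.0318). Members higher after LL34 shRNA were 2, with Incenp, both when the dimmer probe sets were left out and with a trended robust prior. Incenp was also called higher after NANCI shRNA when the dimmer probe sets were left out (limma adjusted p = 0.0478). Quantile normalization moved the median level of the members in NANCI_shRNA from 11.02 to 10.98. The cause of these moves was not tested. With 3 arrays per group, the smallest member change called in either knockdown was 0.21 in size.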
